A study of Mus musculus with 40 samples.

Results

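The genes that encode integrin and laminin subunits were followed in left ventricular RNA of FVB/NJ mice. They were taken by name, as every gene whose symbol begins with Itga, Itgb, Lama, Lamb or Lamc, apart from 3 binding-protein genes (Itgb1bp1, Itgb1bp2 and Itgb3bp). This gave 38 of the 22676 genes measured, and all 38 were among the 16395 genes kept because they reached a normalized count of at least 10 in at least 5 of the 40 libraries. They are 26 integrin subunits, 11 laminin chains and Itgbl1, whose product is a secreted protein with integrin beta-like repeats and is not a receptor subunit. Lama1 lay just inside the filter, reaching 10 in 5 libraries, and the next were Itgad in 23 libraries and Itgax in 26.

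The ONOFF mice had for a time expressed, in the heart alone and under doxycycline, a dominant-negative OGA (OGA takes O-GlcNAc sugars off proteins), and the Con mice were controls. Mice of both genotypes ate doxycycline food for 2 weeks, returned to standard chow for 2 weeks, and then had transverse aortic constriction (TAC, which narrows the aorta and loads the left ventricle) or sham surgery. Tissue was taken after 9 weeks. The 4 conditions were ONOFF TAC, ONOFF Sham, Con TAC and Con Sham, each with 10 libraries, 5 from females and 5 from males, and a library is named here by its condition, sex and replicate number. Doxycycline had thus been withdrawn before surgery, and the comparisons ask how ONOFF hearts differed from Con hearts afterwards, alone or under pressure overload.

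Integrins are cell-surface receptors made of an alpha and a beta chain that bind the extracellular matrix outside and talin and actin inside. Laminins are cross-shaped trimers of an alpha, a beta and a gamma chain and form, with collagen IV, nidogen and perlecan, the basement membrane around each cardiomyocyte and capillary. In the adult heart the muscle cell is held to its laminin mainly by the integrin alpha 7 beta 1 and by dystroglycan, whereas fibroblasts, leukocytes, vessels and epithelia use other subunits.

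The normalized counts of the libraries summed to 35176220 to 47653987, and the sequencing depth behind them is unknown. Cardiomyocyte markers were abundant in every library, with the 8 genes of that list together at 1834350 to 4026510. The Oga gene had a median of 3537 in ONOFF TAC, 5927 in ONOFF Sham, 3073 in Con TAC and 3182 in Con Sham. At tissue collection it was still higher in ONOFF Sham, at 3019 to 8294, than in Con Sham, at 2644 to 3507 (log2 0.83, SE 0.117, limma adjusted p = 0.000295, 9 of 10 libraries), and the log2 difference between ONOFF TAC and Con TAC was 0.34 (adjusted p = 0.0645). Whether any of these reads came from the transgene was not tested. Some libraries stood apart. The number of genes listed at 0 was 5782 to 6920 in 3 Con Sham libraries (M replicate 4 and F replicates 3 and 5) and 2635 to 4594 elsewhere. Con TAC F replicates 2 and 3, labelled female, had Xist at 51.7 and 6.72, against 1123 to 3274 in the other 18 female libraries, and their Y-linked genes summed to no more than 16.0. ONOFF TAC F replicate 2 held lung genes, with the surfactant gene Sftpb at 2109 against at most 37.3 in any other library. The atrial gene Myl7 was at 525 to 7010 in 14 libraries (3 of ONOFF TAC, 5 of ONOFF Sham, 1 of Con TAC and 5 of Con Sham) and at 0 to 116 in the other 26. The lung and atrial genes were looked at after the values had been seen, and results that turn on any of these libraries are given with and without them.

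The level of each gene can be compared with that of another only per length, here as normalized count per kilobase of transcript. In Con Sham the highest were Itgb1, the beta chain shared by most matrix-binding integrins, at 3730 ± 212 per kilobase, and the laminin chain Lamb2 at 3725 ± 357 per kilobase (SD, n = 10), which did not differ beyond their spread. Itga7, the laminin-binding alpha chain of muscle, followed at 1938 ± 265 per kilobase and Itgb5, a beta partner of alpha v, at 1825 ± 121 per kilobase, also within their spread. Lamc1 and Lamb1 came next at 1051 ± 90.2 and 993 ± 78.5 per kilobase. The laminin alpha chains Lama2, which is the chain of striated muscle, and Lama4, which is that of vessels, were close together at 548 ± 66.2 and 533 ± 113 per kilobase, and the fibronectin receptor chain Itga5 stood beside them at 530 ± 84.9 per kilobase. Itga9, Itga6 and Lama5 lay between 375 and 419 per kilobase. At the low end were the leukocyte chain Itgae at 4.26 ± 1.99 per kilobase, Itga10 at 4.83 ± 3.24 per kilobase and Lama1, an alpha chain of embryonic and epithelial basement membranes, which was listed at 0 in 13 of the 40 libraries.

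**Figure D1:**
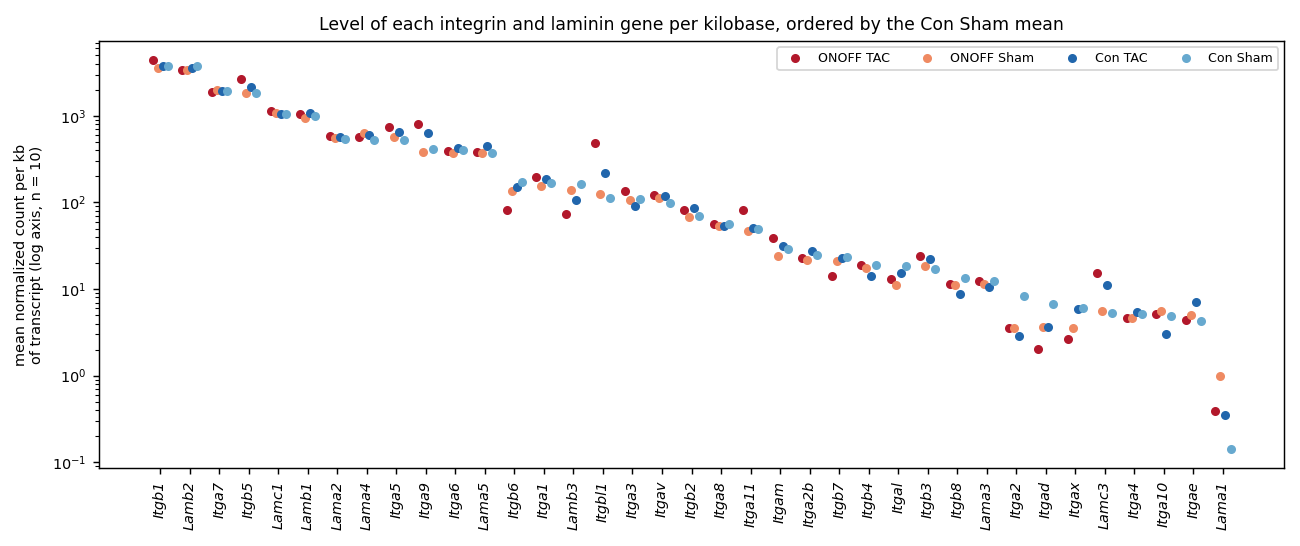
Mean normalized count per kilobase of transcript (log axis) of 37 integrin and laminin genes in ONOFF TAC, ONOFF Sham, Con TAC and Con Sham (10 libraries each), ordered by Con Sham. Itgb1 and Lamb2 lead at 3730 and 3725 per kilobase in Con Sham, and Lama1, listed at 0 in 13 of 40 libraries, is lowest.

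After TAC in ONOFF mice, 12 of the 38 genes passed the test, 10 higher and 2 lower, which is 31.6% against 21.2% of all genes kept (10.7% higher and 10.6% lower). Itgbl1, Itga9, Lamc3, Itga11, Itgam, Itgb5, Itga5, Itga1 and Itgb1 were among those that rose, and Lamb3 and Itgb6 fell. The test was limma on log2(normalized count + 1), two-sided, with the Benjamini-Hochberg adjusted p called below 0.05 over all genes kept. The median log2 change of the 38 was 0.09, beside 0.01 over all genes. Because whole ventricle was sequenced, fewer cells of a type and less RNA per cell cannot be told apart.

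TAC called fewer of these genes in Con mice, with 4 higher (Lamc3, Itgbl1, Itga9 and Itga5) and 1 lower (Lamb3), 13.2% against 5.78% of all genes (3.17% higher and 2.62% lower). Their median log2 change was 0.08 beside 0.02 over all genes. That count was 3 without the libraries rich in zeros, 3 without the Xist-poor libraries and 1, Itga9, without both sets. It was also 3 in a fit of the groups compared alone, and 3 when any 1 of Con Sham M replicate 4, Con TAC F replicates 1 and 2 or Con TAC M replicates 1 and 2 was left out. Of the 16395 genes kept, 948 were called with all libraries and 706 to 1113 with any single library left out. The number was 896 without the zero-rich libraries, 581 without the Xist-poor ones, 598 without both sets and 495 in the groups alone.

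Between ONOFF TAC and Con TAC, 4 genes were higher (Itgbl1, Itga11, Itgb5 and Itga9) and 2 lower (Itgb6 and Lamb3), 15.8% against 7.97% of all genes (4.14% higher and 3.82% lower), with a median log2 difference of 0.09 beside -0.00 over all genes. Between ONOFF Sham and Con Sham, limma called none of the 38, against 0.14% of all genes (0.116% higher and 0.0244% lower), and 2 had an unadjusted p below 0.05 (Lama4 at a log2 difference of 0.26, adjusted p = 0.562, and the leukocyte chain Itgal at -0.69, adjusted p = 0.186). Over all genes kept, 1415 of 16395 had an unadjusted p below 0.05 in that comparison. The test of whether TAC acted differently in the 2 genotypes called none of the 38 either, against 0.445% of all genes (0.238% higher and 0.207% lower). In that test 7 of the 38 had an unadjusted p below 0.05, beside 1874 of the 16395 genes kept. These comparisons share libraries in pairs, so their counts are not independent of one another.

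**Figure D2:**
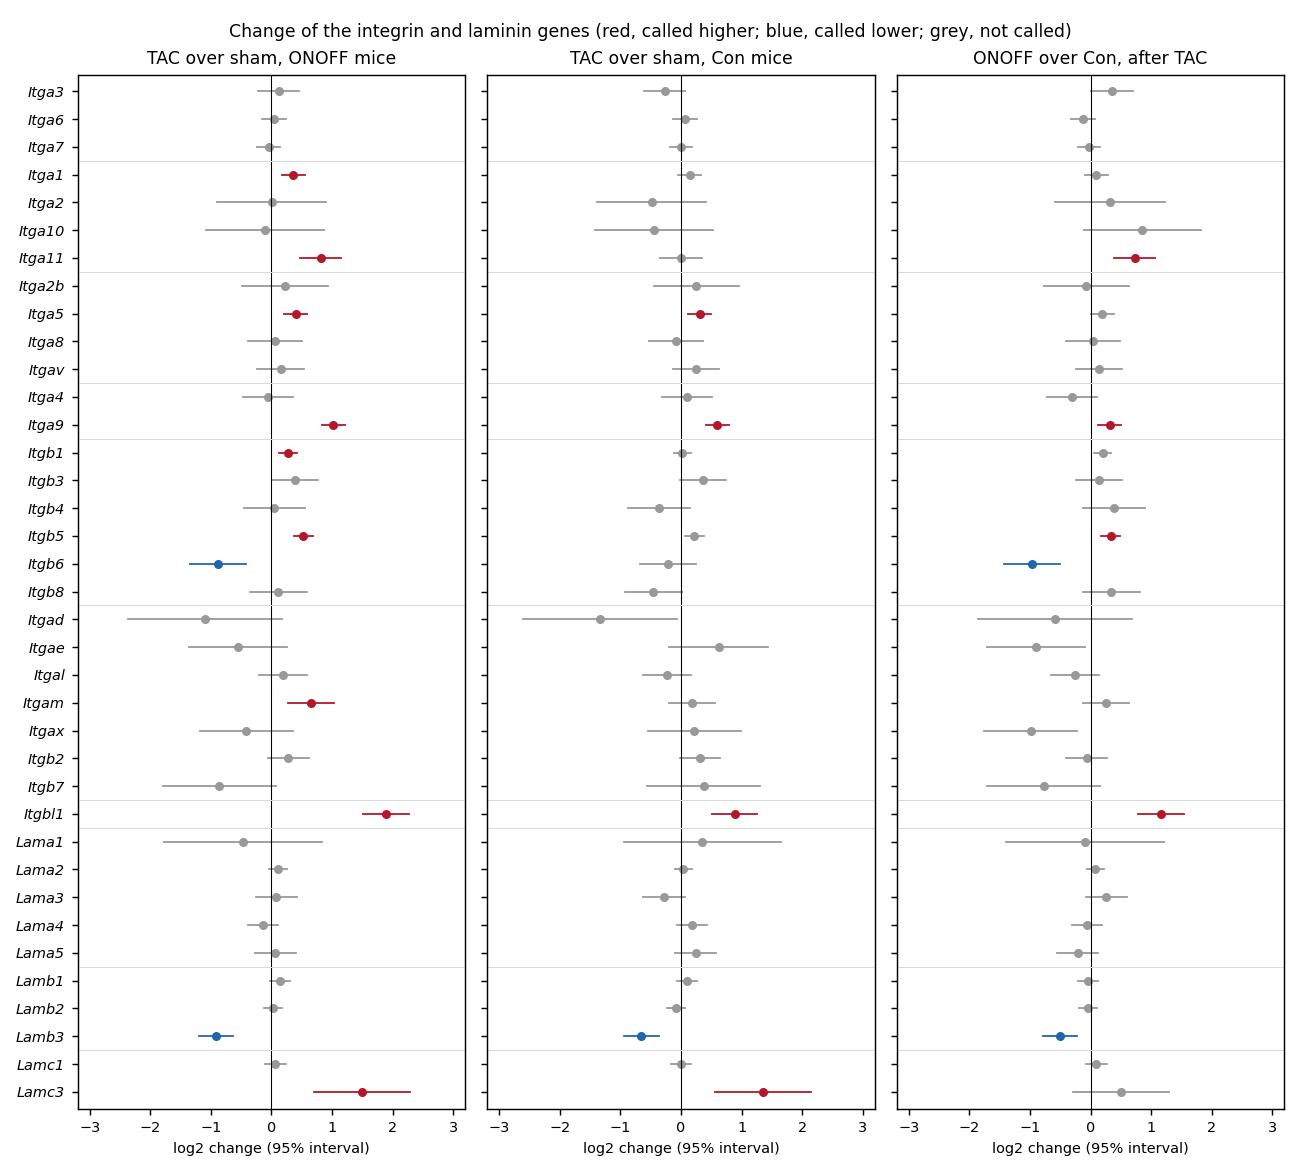
Log2 change of 37 of the genes with its 95% interval (limma, 40 libraries), for TAC over sham in ONOFF mice, TAC over sham in Con mice and ONOFF over Con after TAC. Red is called higher, blue called lower and grey not called: 11, 5 and 6 of the genes drawn are called in the 3 panels, while most laminin chains sit near 0.

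The start regions shown are of the genes with the largest called rises and falls with TAC in ONOFF mice, and common control was not tested. They are taken from RefSeq on GRCm38.p6, an older build than the GRCm39 to which the reads were aligned, and run from 250 bases before the start to 50 bases from it, 5' to 3' on the gene's strand. Of the 38 genes, 24 had an entry, and Lamc3 had none. Itgbl1 is at chr14:123659890-123660189 (plus strand), Itga9 at chr9:118711442-118711741 (plus strand), Lamb3 at chr1:193301744-193302043 (plus strand, the first of 2 entries) and Itgb6 at chr2:60722554-60722853 (minus strand, the first of 2 entries). Capitals mark a searched motif.
Itgbl1: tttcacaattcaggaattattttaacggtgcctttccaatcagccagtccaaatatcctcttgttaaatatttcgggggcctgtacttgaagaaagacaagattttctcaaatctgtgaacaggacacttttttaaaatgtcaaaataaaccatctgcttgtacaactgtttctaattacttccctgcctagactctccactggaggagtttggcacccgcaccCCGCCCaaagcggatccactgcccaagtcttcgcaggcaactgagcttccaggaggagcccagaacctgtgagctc
Itga9: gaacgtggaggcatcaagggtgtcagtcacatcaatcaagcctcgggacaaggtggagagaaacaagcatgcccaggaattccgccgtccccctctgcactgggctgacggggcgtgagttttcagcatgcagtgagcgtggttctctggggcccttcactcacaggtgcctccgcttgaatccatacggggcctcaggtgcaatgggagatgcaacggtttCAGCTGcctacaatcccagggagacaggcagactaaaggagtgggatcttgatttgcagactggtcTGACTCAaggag
Lamb3: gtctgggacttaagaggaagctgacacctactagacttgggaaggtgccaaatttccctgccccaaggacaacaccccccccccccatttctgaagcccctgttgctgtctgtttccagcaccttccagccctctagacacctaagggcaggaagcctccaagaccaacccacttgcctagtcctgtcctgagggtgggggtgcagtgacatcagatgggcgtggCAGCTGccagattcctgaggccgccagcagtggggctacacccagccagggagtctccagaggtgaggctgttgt
Itgb6: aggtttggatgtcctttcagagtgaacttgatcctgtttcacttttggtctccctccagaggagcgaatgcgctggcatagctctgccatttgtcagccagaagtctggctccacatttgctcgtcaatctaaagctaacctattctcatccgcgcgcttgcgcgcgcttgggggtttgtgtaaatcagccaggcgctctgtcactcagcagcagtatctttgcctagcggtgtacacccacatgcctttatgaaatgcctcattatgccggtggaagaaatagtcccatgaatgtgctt

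The motifs searched on both strands were GGAATG (TEAD), TGANTCA (AP-1), GTCTAGAC (a SMAD box), GGGCGG (an Sp1 box) and CAGCTG (an E-box). No 2 matches in the printed windows overlap. The Itgbl1 window held the Sp1 box, read on the other strand as CCGCCC, at -26 from the start. The Itga9 window held the E-box at -28 and the AP-1 motif as TGACTCA, 39 bases from the start. Lamb3 had the E-box at -25, and its second entry had the TEAD motif as CATTCC at -167. Itgb6 held none of these letters. Over the 27 windows of the 24 genes, 13 held the Sp1 box, 8 the E-box, 3 the TEAD motif, 3 the AP-1 motif and 0 the SMAD box. Of the 32851 windows in the table, 35.7% held the Sp1 box, 16.3% the E-box, 14.7% the TEAD motif, 7.81% the AP-1 motif and 0.213% the SMAD box.

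Itgbl1 had the largest log2 change of the 38 genes with TAC in ONOFF mice and between ONOFF TAC and Con TAC. It spanned 672 to 3155 in ONOFF TAC with a median of 1887, against 309 to 750 with a median of 535 in ONOFF Sham. It spanned 474 to 1433 in Con TAC with a median of 849, against 320 to 634 with a median of 433 in Con Sham. ONOFF TAC and ONOFF Sham overlapped through the lowest ONOFF TAC library, F replicate 1, while the other 9 ONOFF TAC libraries lay above every Con TAC library. TAC raised it by 1.89 on the log2 scale in ONOFF mice (SE 0.185, adjusted p = 1.07e-09) and by 0.89 in Con mice (adjusted p = 0.00238), with 10 of 10 TAC libraries above the sham mean of their sex in both genotypes. The level after TAC was 2.24-fold higher in ONOFF than in Con mice (log2 1.17, SE 0.185, adjusted p = 8.8e-05, 9 of 10 libraries). The difference between the TAC effects was 1.01 (SE 0.261, adjusted p = 0.0633). It passed the threshold without the libraries rich in zeros (1.13, adjusted p = 0.0432) and with library weights (1.02, adjusted p = 0.00622). The Con effect was no longer called without both the zero-rich and the Xist-poor libraries (0.70, adjusted p = 0.0762).

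Itga9 encodes the alpha 9 chain, which with beta 1 binds tenascin C and VCAM1. It spanned 3723 to 6840 in ONOFF TAC with a median of 5937, against 2485 to 3211 with a median of 2645 in ONOFF Sham. It spanned 3576 to 5620 in Con TAC with a median of 4507, against 2424 to 3719 with a median of 2929 in Con Sham. ONOFF TAC and ONOFF Sham did not overlap, the one such pair among the changes called here, and Con TAC and Con Sham overlapped only between 3576 and 3719. How many of all genes kept lacked overlap was not counted, so these ranges do not show that Itga9 is unusual. The rise with TAC was 2.03-fold in ONOFF mice (log2 1.02, SE 0.091, adjusted p = 1.66e-10) and 1.52-fold in Con mice (log2 0.60, SE 0.091, adjusted p = 4.02e-05). ONOFF TAC exceeded Con TAC by 0.31 on the log2 scale (adjusted p = 0.0271, 8 of 10 libraries). That difference missed the threshold when any 1 of 6 libraries was left out (0.26 to 0.30, adjusted p = 0.0522 to 0.0739), without the Xist-poor libraries (0.29, adjusted p = 0.0657) and in a fit of the groups compared alone (adjusted p = 0.0884). Those 6 libraries were M replicates 1, 2 and 3 with F replicates 4 and 5 of ONOFF TAC, and M replicate 3 of Con TAC. Its nearest relative, Itga4, averaged 45.3 in ONOFF TAC, 45.7 in ONOFF Sham, 52.9 in Con TAC and 50.3 in Con Sham and was called in no comparison.

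Among the 4 collagen-binding alpha chains, Itga11 and Itga1 rose with TAC in ONOFF mice. Itga11, a receptor for fibrillar collagen on fibroblasts, spanned 280 to 516 in ONOFF TAC with a median of 424, against 117 to 310 with a median of 250 in ONOFF Sham. In Con TAC it spanned 96.6 to 350 with a median of 250, against 173 to 362 with a median of 243 in Con Sham. The 3 other conditions were alike in median, and ONOFF TAC overlapped each of them at its lower end. Its rise in ONOFF mice was 1.75-fold (log2 0.81, SE 0.169, adjusted p = 0.000395) and its log2 change in Con mice 0.00 (adjusted p = 0.998). ONOFF TAC was above Con TAC by 0.73 (SE 0.169, adjusted p = 0.00478), with 10 of 10 libraries above the Con TAC mean of their sex, but the difference between the TAC effects, 0.81, missed the threshold (SE 0.240, adjusted p = 0.118).

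Itga1, a receptor that also binds the collagen IV of basement membranes, spanned 1601 to 2597 in ONOFF TAC with a median of 2183, against 1330 to 2028 with a median of 1684 in ONOFF Sham. In Con TAC it spanned 1397 to 2388 with a median of 2094, against 1408 to 2490 with a median of 1837 in Con Sham. The ranges overlapped widely in both genotypes. TAC raised it by 0.36 in ONOFF mice (SE 0.094, adjusted p = 0.00415, 9 of 10 libraries), and the log2 change in Con mice was 0.15 (adjusted p = 0.409). The other collagen receptors, Itga2 and Itga10, were called nowhere. Itga2 averaged 25.5 in ONOFF TAC, 25.3 in ONOFF Sham, 20.6 in Con TAC and 59.4 in Con Sham, the last raised by Con Sham F replicate 5 at 366. Itga10 averaged 25.8 in ONOFF TAC, 28.1 in ONOFF Sham, 15.4 in Con TAC and 24.3 in Con Sham.

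The summed level of activated fibroblast markers was higher by median after TAC in both genotypes, as were Itgbl1 and Itga9, whereas Itga11 was called in ONOFF mice and had a log2 change of 0.00 in Con mice. The 6 genes of that list, which holds none of the 38, summed to 9832 to 29644 in ONOFF TAC, 4071 to 7447 in ONOFF Sham, 4910 to 11464 in Con TAC and 3411 to 6479 in Con Sham. In ONOFF mice 3 of the 6 rose with TAC (Postn, Meox1 and Thbs4), the same 3 rose in Con mice, and they were also higher in ONOFF TAC than in Con TAC. That is 50% in each comparison, against 21.2%, 5.78% and 7.97% of all genes. The difference between the TAC effects was called higher in ONOFF mice for 2 of the 6, 33.3% against 0.445% of all genes called. The general fibroblast list had 4 of 8 genes higher and 1 lower after TAC in ONOFF mice, 62.5% against 21.2% of all genes. It summed to 132027 to 172091 in ONOFF TAC and 101444 to 162401 in ONOFF Sham. None of the defining markers was at 0 throughout, and the part of fibroblasts in these results was not tested.

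Itga5, the alpha chain of the fibronectin receptor, spanned 2474 to 4204 in ONOFF TAC with a median of 3261, against 1925 to 2946 with a median of 2529 in ONOFF Sham. In Con TAC it spanned 2016 to 3532 with a median of 2946, against 1602 to 2721 with a median of 2428 in Con Sham. The TAC libraries lay higher in both genotypes, with overlap. TAC raised it by 0.40 in ONOFF mice (SE 0.094, adjusted p = 0.00159, 10 of 10 libraries) and by 0.31 in Con mice (SE 0.094, adjusted p = 0.042, 8 of 10 libraries). The call in Con mice was lost when any 1 of 11 libraries was left out (0.26 to 0.32, adjusted p = 0.0512 to 0.0898), without the Xist-poor libraries (0.24, adjusted p = 0.201) and without the 14 libraries with atrial genes (0.32, adjusted p = 0.107). That call was also lost without the zero-rich libraries (0.26, adjusted p = 0.115) and without both sets (0.19, adjusted p = 0.3). The 11 were Con Sham F replicates 3 and 4, Con Sham M replicates 1, 4 and 5, Con TAC F replicates 1, 2 and 3 and Con TAC M replicates 1, 2 and 4. Without the atrial libraries the ONOFF value was 0.32 (adjusted p = 0.0601).

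The remaining chains that bind the RGD sequence of matrix proteins passed in no comparison. Itgav, the alpha v chain, averaged 869 in ONOFF TAC, 793 in ONOFF Sham, 834 in Con TAC and 693 in Con Sham. The platelet chain Itga2b averaged 77.8 in ONOFF TAC, 73.8 in ONOFF Sham, 95.2 in Con TAC and 84.6 in Con Sham. Itga8, a nephronectin receptor, averaged 326 in ONOFF TAC, 315 in ONOFF Sham, 312 in Con TAC and 325 in Con Sham.

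Of the 6 integrin beta chains outside the leukocyte group, Itgb1 and Itgb5 rose and Itgb6 fell with TAC in ONOFF mice, and none was called in Con mice. Itgb5 spanned 6852 to 10708 in ONOFF TAC with a median of 8864, against 5258 to 7047 with a median of 6034 in ONOFF Sham. It spanned 5813 to 10309 in Con TAC with a median of 6812, against 5292 to 6561 with a median of 5855 in Con Sham. ONOFF TAC met ONOFF Sham only between 6852 and 7047, and Con TAC M replicate 1, at 10309, stood far above the other Con TAC libraries, of which the highest was 7316. The rise was 1.44-fold in ONOFF mice (log2 0.53, SE 0.078, adjusted p = 2.47e-06), and the log2 change in Con mice was 0.22 (adjusted p = 0.0898). ONOFF TAC exceeded Con TAC by 0.33 (SE 0.078, adjusted p = 0.00497, 10 of 10 libraries). The difference between the TAC effects was 0.31 (adjusted p = 0.219).

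Itgb1 spanned 10721 to 19424 in ONOFF TAC with a median of 16720, against 12795 to 14903 with a median of 13846 in ONOFF Sham. In Con TAC it spanned 10455 to 16066 with a median of 15586, against 12865 to 15174 with a median of 14520 in Con Sham. Of the ONOFF TAC libraries, F replicate 1 lay below every ONOFF Sham library and the other 9, at 15694 or more, lay above them all. TAC raised Itgb1 by 0.27 in ONOFF mice (SE 0.072, adjusted p = 0.00489, 9 of 10 libraries), and its log2 change in Con mice was 0.02 (adjusted p = 0.909). ONOFF TAC against Con TAC gave 0.20 (adjusted p = 0.081), which passed without the 14 atrial libraries (0.27, adjusted p = 0.0399).

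Itgb6, the beta partner of alpha v that activates latent TGF-beta and is found mainly in epithelia, spanned 79.0 to 661 in ONOFF TAC with a median of 412, against 487 to 954 with a median of 631 in ONOFF Sham. It spanned 354 to 1044 in Con TAC with a median of 740, against 595 to 1208 with a median of 754 in Con Sham. The ONOFF TAC median was the lowest of the 4 conditions, yet its higher libraries overlapped the other ranges. Itgb6 fell by 0.88 with TAC in ONOFF mice (SE 0.231, adjusted p = 0.0045), and its log2 change in Con mice was -0.22 (adjusted p = 0.661). It was lower in ONOFF TAC than in Con TAC by 0.97 (log2 -0.97, SE 0.231, adjusted p = 0.00586), with 10 of 10 libraries below the Con TAC mean of their sex. The libraries with Myl7 are spread unevenly over these conditions, and their part in the fall was not tested beyond leaving them out. Without the 14 atrial libraries the value was -0.63 for TAC in ONOFF mice (adjusted p = 0.148) and -0.75 for ONOFF TAC against Con TAC (adjusted p = 0.0522). In a fit of the groups compared alone the second value had an adjusted p of 0.0554. The lowest ONOFF TAC value, 79.0, was in M replicate 5, which is 1 of the 3 ONOFF TAC libraries with atrial genes. With single libraries left out Itgb6 stayed called in both comparisons. Its value was then -1.04 to -0.66 for TAC in ONOFF mice and -1.12 to -0.74 for ONOFF TAC against Con TAC.

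Itgb3, Itgb4 and Itgb8 were called nowhere. Itgb3, the other vitronectin-binding partner of alpha v, averaged 140 in ONOFF TAC, 108 in ONOFF Sham, 128 in Con TAC and 99.9 in Con Sham. Itgb4, the hemidesmosome chain, averaged 117 in ONOFF TAC, 109 in ONOFF Sham, 87.5 in Con TAC and 117 in Con Sham. Itgb8 averaged 96.6 in ONOFF TAC, 93.2 in ONOFF Sham, 74.5 in Con TAC and 114 in Con Sham.

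Among the 7 leukocyte chains Itgam, the alpha M chain of macrophages and neutrophils, was the one called in the fit of all 40 libraries with equal weights. It spanned 124 to 288 in ONOFF TAC with a median of 162, against 81.0 to 179 with a median of 108 in ONOFF Sham. It spanned 114 to 204 in Con TAC with a median of 135, against 48.4 to 212 with a median of 133 in Con Sham. All 4 ranges overlapped. TAC raised Itgam by 0.66 in ONOFF mice (SE 0.187, adjusted p = 0.00883, 10 of 10 libraries), against a log2 change of 0.17 in Con mice (adjusted p = 0.665), and the difference between the 2 effects was 0.48 (adjusted p = 0.505). Without the 14 atrial libraries the ONOFF value was 0.55 (adjusted p = 0.123). The highest ONOFF TAC value, 288, was in the library with lung genes, F replicate 2. Without that library the ONOFF value was 0.58 (adjusted p = 0.0245). The 9 macrophage markers summed to 6473 to 11265 in ONOFF TAC and 4267 to 10035 in ONOFF Sham, with 1 of 9 (Adgre1) called higher, 11.1% against 21.2% of all genes. All 9 had a positive log2 change with TAC in ONOFF mice, with a median of 0.34. Of the 9, 7 had an unadjusted limma p below 0.05, as did 5221 of the 16395 genes kept. Counts of 5 neutrophil markers summed to 30.1 to 128 in ONOFF TAC and 32.3 to 235 in ONOFF Sham, and limma called none of the 4 tested, with 0 at an unadjusted p below 0.05. The part of these cells in the result was not tested.

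The other leukocyte chains were not called in the fit of all 40 libraries with equal weights. Itgb2, the beta partner of alpha M and alpha L, averaged 245 in ONOFF TAC, 204 in ONOFF Sham, 256 in Con TAC and 206 in Con Sham, with a log2 change of 0.28 with TAC in ONOFF mice (adjusted p = 0.255). Itgal, the lymphocyte chain, averaged 67.8 in ONOFF TAC, 57.8 in ONOFF Sham, 80.4 in Con TAC and 95.1 in Con Sham. Itgb7, Itgae, Itgax and Itgad had condition averages between 8.16 and 62.5.

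The calls of Itgb7 and Itgae turned on the setting. Itgb7, the beta chain of gut-homing lymphocytes, spanned 7.80 to 125 in ONOFF TAC with a median of 28.3, against 27.4 to 94.4 with a median of 57.8 in ONOFF Sham. It spanned 24.9 to 177 in Con TAC with a median of 40.5, against 0 to 152 with a median of 54.9 in Con Sham. The ranges overlapped, and the highest ONOFF TAC value of Itgb7 was in the library with lung genes. Its log2 change with TAC in ONOFF mice was -0.86 (SE 0.460, adjusted p = 0.195). The same value was called without the zero-rich libraries (adjusted p = 0.0117), without both sets (adjusted p = 0.00741) and in a fit of the groups compared alone (adjusted p = 0.0136), and library weights gave -0.88 (adjusted p = 0.0155). Between ONOFF TAC and Con TAC Itgb7 differed by -0.77 (adjusted p = 0.36), called without the zero-rich libraries (adjusted p = 0.0486). For Itgae, the partner of beta 7 in the skin and gut lining, the log2 change with TAC in ONOFF mice was -0.55 (adjusted p = 0.373) and the difference between ONOFF TAC and Con TAC was -0.90 (adjusted p = 0.18). With library weights both were called, at -1.11 (adjusted p = 0.0386) and -1.49 (adjusted p = 0.0165).

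**Figure D3:**
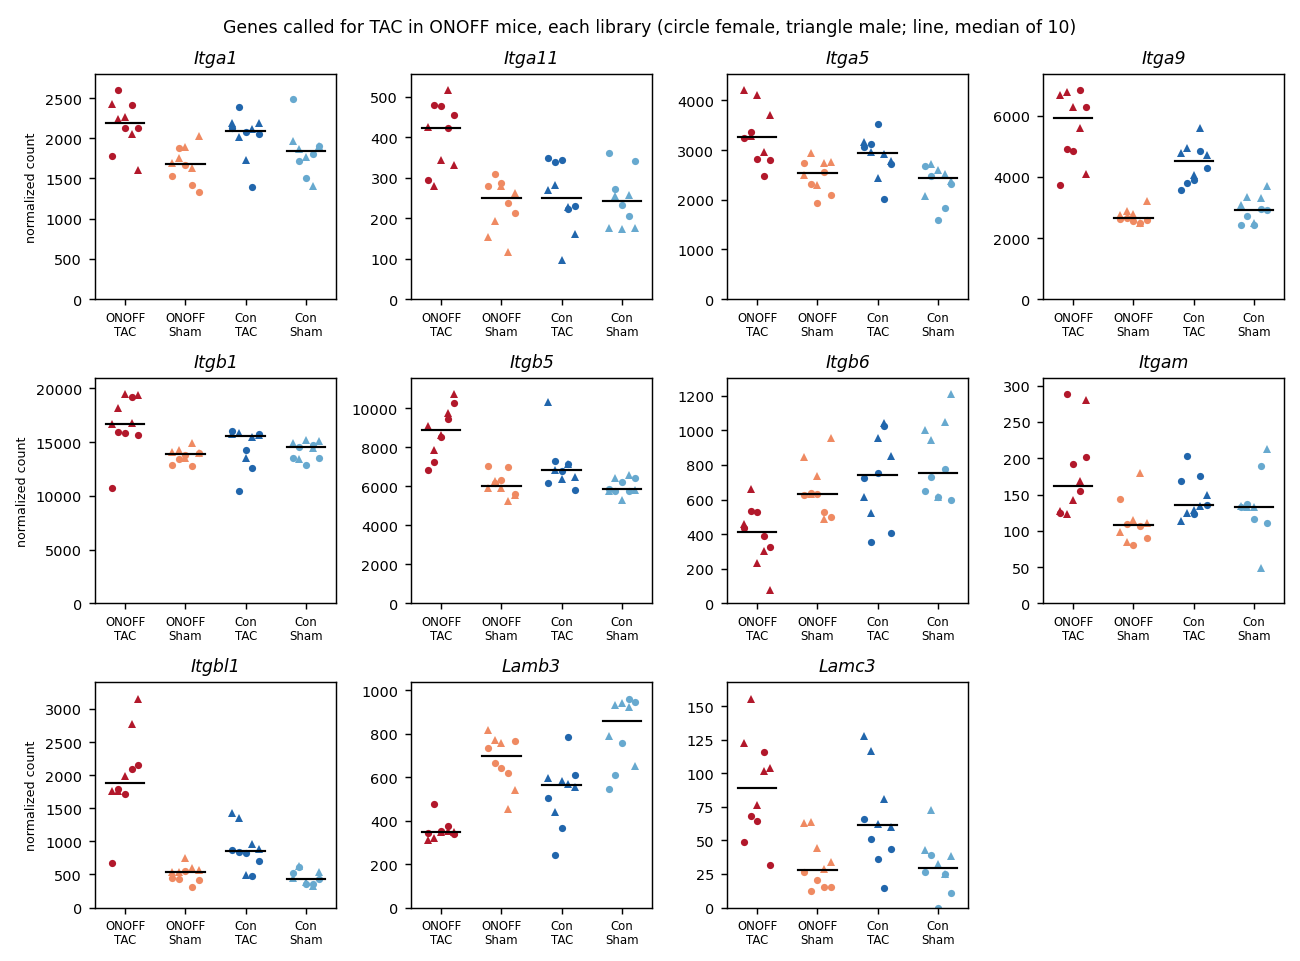
Normalized count of 11 genes called for TAC in ONOFF mice in each of the 40 libraries (linear axes from 0; circles female, triangles male; the line is the median of 10). Of the genes drawn, Itga9 is the one whose ONOFF TAC libraries, at 3723 to 6840, all lie above the ONOFF Sham libraries (not counted over all genes). Lamb3 and Itgb6 are lowest in ONOFF TAC by median.

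Among the laminins, Lamb3 fell and Lamc3 rose with TAC in both genotypes, and both stood below Lamb2, Lamc1, Lamb1, Lama2, Lama4 and Lama5 in level per kilobase in Con Sham. Lamb3, a beta chain of the laminin that anchors epithelia, spanned 311 to 477 in ONOFF TAC with a median of 346, against 452 to 815 with a median of 699 in ONOFF Sham. It spanned 243 to 784 in Con TAC with a median of 563, against 546 to 961 with a median of 857 in Con Sham. The ONOFF pair overlapped only because ONOFF TAC F replicate 2, the library with lung genes, exceeded ONOFF Sham M replicate 4. Lamb3 fell by 0.91 with TAC in ONOFF mice (SE 0.140, adjusted p = 4.4e-06, 10 of 10 libraries) and dropped by 0.65 in Con mice (SE 0.140, adjusted p = 0.00294, 9 of 10 libraries). Its log2 difference between ONOFF TAC and Con TAC was -0.50 (SE 0.140, adjusted p = 0.0191, 9 of 10 libraries), which became -0.41 (adjusted p = 0.0541) without Con TAC F replicate 4. Without both the zero-rich and the Xist-poor libraries the Con effect was -0.36 (adjusted p = 0.108).

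Lama3, an alpha chain of epithelial basement membranes, averaged 130 in ONOFF TAC, 119 in ONOFF Sham, 110 in Con TAC and 129 in Con Sham and was called nowhere.

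Lamc3, a gamma chain of narrower distribution than Lamc1, spanned 31.7 to 156 in ONOFF TAC with a median of 89.2, against 12.6 to 63.8 with a median of 27.7 in ONOFF Sham. It spanned 14.6 to 128 in Con TAC with a median of 61.2, against 0 to 72.5 with a median of 29.2 in Con Sham, where the 0 was in Con Sham F replicate 3, a library rich in zeros. TAC libraries were higher in both genotypes, with overlap. On the log2(normalized count + 1) scale TAC raised it 2.83-fold in ONOFF mice (log2 SE 0.392, adjusted p = 0.00423, 10 of 10 libraries) and 2.56-fold in Con mice (log2 1.36, SE 0.392, adjusted p = 0.0308, 10 of 10 libraries). At these low values the fold depends on the pseudocount. The Con means were 65.9 in Con TAC and 31.2 in Con Sham, and a pseudocount of 10 gave a Con log2 value of 0.92 (adjusted p = 0.0132). Library weights gave 0.90 (adjusted p = 0.0374), and a fit of the groups compared alone kept 1.36 but lost the call (adjusted p = 0.15). Without the zero-rich libraries the Con log2 value was 0.64 (adjusted p = 0.143), without both sets 0.58 (adjusted p = 0.247), and without the Xist-poor ones 1.30 (adjusted p = 0.0903). It was 1.26 to 1.30 (adjusted p = 0.0535 to 0.0605) when Con Sham M replicate 4, Con TAC F replicate 1 or 2 or Con TAC M replicate 1 or 2 was left out.

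The laminin chains that lead the ventricle by level were called in no comparison. Lama2 spanned 5305 to 6466 in ONOFF TAC with a median of 5591, against 4246 to 5866 with a median of 5449 in ONOFF Sham, and its log2 change with TAC was 0.11 with a 95% interval of -0.04 to 0.25. Lamc1 spanned 6659 to 9944 in ONOFF TAC with a median of 8734, against 7116 to 10210 with a median of 7952 in ONOFF Sham, and changed by 0.07 (-0.10 to 0.23). Lamb2 spanned 17314 to 21508 in ONOFF TAC with a median of 19313, against 15717 to 21769 with a median of 19433 in ONOFF Sham, and changed by 0.02 (-0.12 to 0.17). These intervals leave room for a rise or fall of a fraction of the level, and a p that misses the threshold does not show that the levels were equal.

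Lamb1 had a log2 change of 0.14 with TAC in ONOFF mice (-0.02 to 0.31) and 0.10 in Con mice (-0.06 to 0.27). Lama4, the alpha chain of vessel walls, had -0.14 in ONOFF mice (-0.38 to 0.11) and 0.18 in Con mice (-0.07 to 0.42). Lama5, also a vascular chain, had 0.06 in ONOFF mice (-0.28 to 0.40) and 0.24 in Con mice (-0.10 to 0.59), and it was the most variable of these chains, at 2611 to 7579 over the 40 libraries. The 8 markers of vascular endothelium, none called in any of these comparisons by limma and none at an unadjusted p below 0.05 for TAC in either genotype, summed to 58899 to 68586 in ONOFF TAC and 59407 to 71849 in ONOFF Sham.

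The alpha chains that bind laminin were not called either. Itga7 spanned 6121 to 8703 in ONOFF TAC with a median of 7621, against 6393 to 10054 with a median of 7909 in ONOFF Sham. It spanned 6553 to 12425 in Con TAC with a median of 7376, against 6360 to 9972 with a median of 7774 in Con Sham. All 4 ranges overlapped, and the log2 change with TAC was -0.05 in ONOFF mice (-0.23 to 0.14) and 0.01 in Con mice (-0.18 to 0.19). Of 8 cardiomyocyte markers, 5 were called lower and 1 higher with TAC in ONOFF mice, 75% against 21.2% of all genes. Itga6 averaged 1673 in ONOFF TAC, 1619 in ONOFF Sham, 1816 in Con TAC and 1755 in Con Sham, and its log2 change with TAC in ONOFF mice was 0.05 (-0.15 to 0.24).

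**Figure D4:**
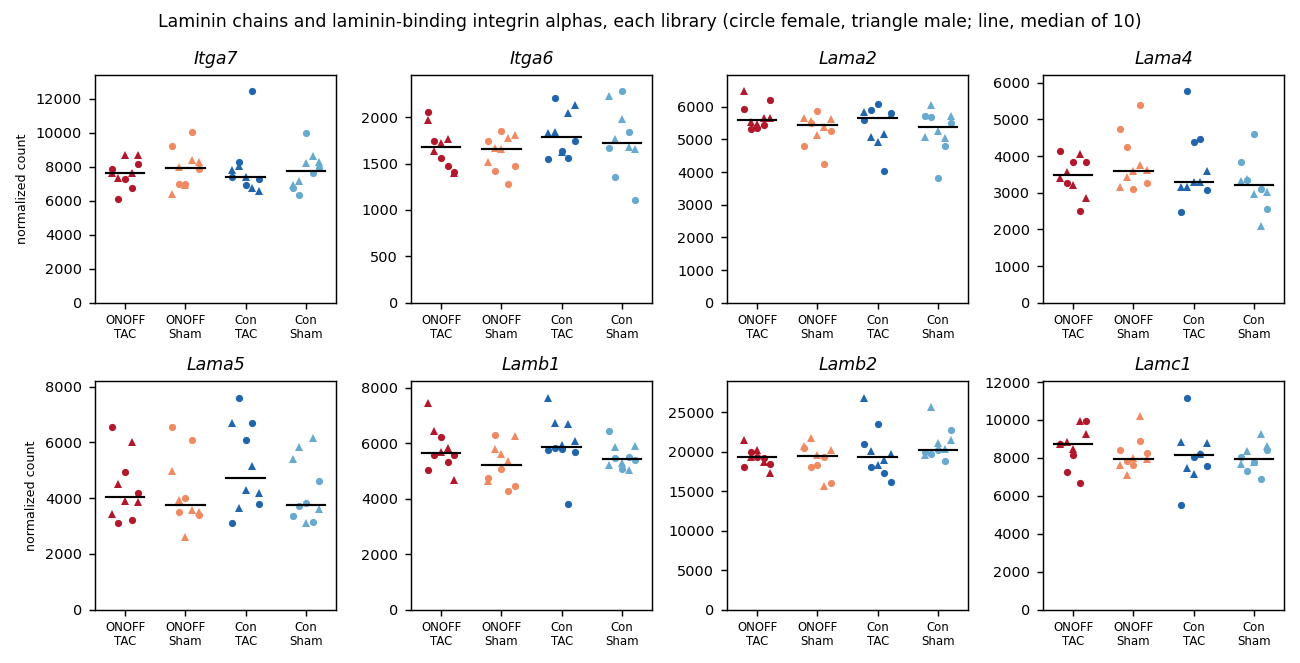
Normalized count of 6 laminin chains and of the laminin-binding integrin chains Itga7 and Itga6 in each of the 40 libraries (linear axes from 0; circles female, triangles male; the line is the median of 10). The medians of the 4 conditions lie close together and the ranges overlap, as for Itga7 with medians of 7621 in ONOFF TAC and 7909 in ONOFF Sham.

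Itga3, the laminin-binding alpha chain of epithelia and lung, turned on 1 library. Its median was 495 in ONOFF TAC, 522 in ONOFF Sham, 459 in Con TAC and 571 in Con Sham, and ONOFF TAC F replicate 2 stood at 2305 while the other 9 ONOFF TAC libraries reached at most 548. That library also held Sftpc at 721, against at most 7.55 in the other 39 libraries, and Ager at 659, against at most 8.34. Its Itga8 was 767, against at most 376 in the rest of ONOFF TAC. The log2 change of Itga3 with TAC in ONOFF mice was 0.12 with this library (adjusted p = 0.684) and -0.11 without it (adjusted p = 0.474). Without it, the 11 genes described above as called for TAC in ONOFF mice all stayed called. Itgb6 in this library lay within the range of its condition.

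**Figure D5:**
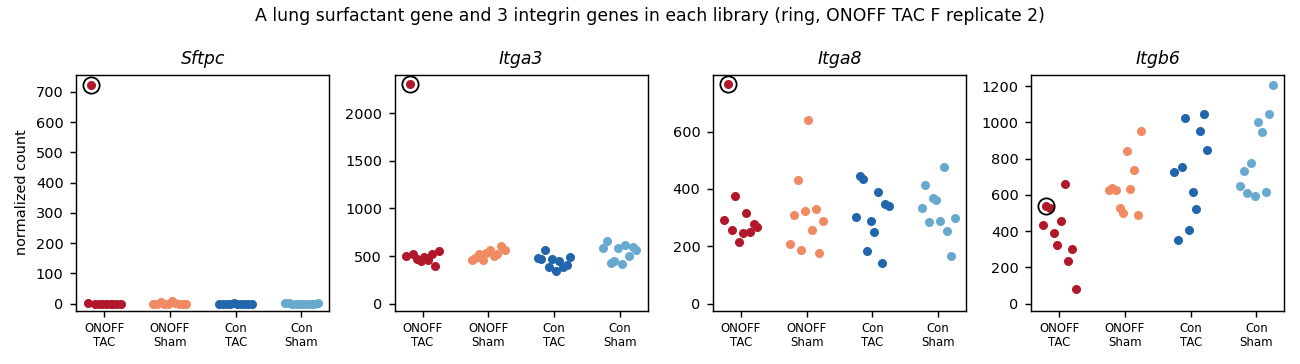
Normalized count of the lung surfactant gene Sftpc and of Itga3, Itga8 and Itgb6 in each of the 40 libraries (linear axes from 0), with ONOFF TAC F replicate 2 ringed. It stands at 721 for Sftpc and 2305 for Itga3, above all other libraries, and inside the ONOFF TAC range for Itgb6.

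Lama1 was listed at 0 in 3 ONOFF TAC, 4 ONOFF Sham, 3 Con TAC and 3 Con Sham libraries, and its highest value was 41.5. None of the 38 genes differed between the sexes in any of the 4 effects after adjustment (limma, 0% of all genes called). Unadjusted p-values below 0.05 numbered 1 for TAC in ONOFF mice (Lama1), 2 for TAC in Con mice (Lamb1 and Itgax), 1 for genotype after TAC (Itgb6) and 0 for genotype after sham. Over the 16395 genes kept the numbers were 862, 540, 656 and 512.

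Genes whose products work beside these subunits were read from 4 lists. Of 18 basement membrane partners, 9 rose and 1 fell with TAC in ONOFF mice, which is 55.6% against 21.2% of all genes, with a median log2 change of 0.42 beside 0.01 over all genes, and 2 rose in Con mice, 11.1% against 5.78%. Frem1, an extracellular matrix protein of epithelial basement membranes, rose by 2.94 on the log2 scale in ONOFF mice (SE 0.483, adjusted p = 1.4e-05) and by 1.61 in Con mice (adjusted p = 0.0386). Sparc, a collagen-binding matrix protein, rose by 0.64 in ONOFF mice (adjusted p = 2.22e-05) and by 0.40 in Con mice (adjusted p = 0.0207). The collagen IV chains Col4a1 and Col4a2, which share the network with laminin, rose by 0.59 and 0.68 in ONOFF mice (adjusted p = 0.000133 and 2.56e-05) and were not called in Con mice (0.29 each, adjusted p = 0.117 and 0.13). After TAC, 3 of the 18 were higher in ONOFF than in Con mice, 16.7% against 7.97% of all genes, and after sham none was called.

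Of 22 integrin ligands and counter-receptors tested, 11 rose and 1 fell with TAC in ONOFF mice, a share of 54.5% against 21.2% of all genes. In Con mice 6 rose, 27.3% against 5.78%, and 6 were higher and 1 lower in ONOFF TAC than in Con TAC, 31.8% against 7.97%. Tnc, the alpha 9 beta 1 ligand tenascin C, spanned 135 to 563 in ONOFF TAC with a median of 272, against 53.5 to 111 with a median of 76.5 in ONOFF Sham. These 2 ranges did not overlap, and how many of all genes kept lacked overlap was not counted. Tnc rose by 1.79 in ONOFF mice (adjusted p = 3.86e-06) and by 1.03 in Con mice (adjusted p = 0.0172). Postn, periostin, rose by 2.14 in ONOFF mice and by 0.84 in Con mice, and the difference between the 2 effects was 1.30 (adjusted p = 0.0474), the one call in that test among the 4 lists. Whether that call holds in the alternative settings was not tested. Ccn2 rose by 1.82 (adjusted p = 7.26e-08) and Tgfb3 by 0.75 (adjusted p = 1.73e-06) in ONOFF mice.

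Inside the cell, 5 of 30 integrin adhesion genes tested rose with TAC in ONOFF mice (Tln1, Parva, Zyx, Actn1 and Sorbs3) and 2 fell (Itgb1bp2 and Cd47), a share of 23.3% near the 21.2% of all genes. Talin, Tln1, which links beta chains to actin, rose by 0.47 (adjusted p = 4.86e-05), and Itgb1bp2, the muscle protein melusin that binds the beta 1 tail, fell by 0.45 (adjusted p = 8.04e-05). In Con mice limma called none of the 30, with 6 at an unadjusted p below 0.05, beside 3258 of the 16395 genes kept. Ptk2b, a kinase related to focal adhesion kinase, was the one gene of the 4 lists called between ONOFF Sham and Con Sham, at 176 to 401 in ONOFF Sham against 54.5 to 259 in Con Sham (log2 0.93, SE 0.181, adjusted p = 0.0221, 9 of 10 libraries), and it was picked out after its values were seen. Whether the Ptk2b call holds without the zero-rich libraries, all of them Con Sham, was not tested. Over all genes kept, that comparison called 23 with all libraries and 2 without the zero-rich ones.

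Dystroglycan and its dystrophin partners, the other laminin receptor complex of muscle, had 1 of 22 genes higher and 3 lower with TAC in ONOFF mice. That share, 18.2%, was near the 21.2% of all genes. In Con mice 1 was higher and 1 lower, 9.09% against 5.78% of all genes. Between ONOFF TAC and Con TAC 2 were lower, 9.09% against 7.97%. Bcam, a laminin alpha 5 receptor placed on this list, fell by 0.45 in ONOFF mice (adjusted p = 1.96e-07) and by 0.25 in Con mice (adjusted p = 0.00655), and was lower by 0.29 in ONOFF TAC than in Con TAC (log2 -0.29, adjusted p = 0.00106). Alpha-sarcoglycan, Sgca, fell by 0.33 in ONOFF mice (adjusted p = 0.000413), and the syntrophin gene Sntb1 rose by 0.77 (adjusted p = 0.000658). Pomt1, an enzyme that adds the sugars through which dystroglycan binds laminin, fell by 0.37 (adjusted p = 0.00308).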

How the data were processed

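Left ventricular RNA of 40 mice (8 groups of genotype, surgery and sex, 5 libraries each) was made into stranded sequencing libraries, as the labels' protocols state. Per the submitters' processing notes, the tools were FastQC 0.11.7, MultiQC 0.8, STAR 2.7.3a, Salmon, R 4.3.1 and DESeq2, with the GRCm39 build. What the authors deposited is a single matrix of normalized counts, a non-negative signal scaled between libraries and not whole reads, so depth is unknown and no count test was run. All 40 columns were matched to libraries by name, and 0 columns had no sample. Nothing in the labels says that equal replicate numbers mark litters or batches, and p-values measure the spread between the libraries of a group.

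Values were used as log2(value + 1), and genes at 10 or more in at least 5 libraries were kept (16395 of 22676; 41 genes of the table have no symbol). The fit was made in R 4.3.3 by limma 3.58.1 (empirical Bayes, trended and robust) with a mean for each of the 8 groups. The contrasts averaged the sexes equally, except the 4 differences between sexes. Values of p were two-sided with Benjamini-Hochberg adjustment over all genes kept, and intervals are at 95%. A count such as 9 of 10 libraries gives those above (or, for a fall, below) the average of their own sex in the other condition. The procedure was tested on simulated data.

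The rule for named genes gave every subunit called in any contrast in full, the others by their means or range, and the 4 genes of smallest p for TAC in ONOFF mice from each pathway list. A gene outside it was chosen after its values were seen. Counts cover all 38 genes, of which 1 is not reported here by name or drawn. The genes, lists, tests and alternatives were chosen with earlier results of these data known. Lengths came from GENCODE M21 (the longest principal protein-coding transcript, GRCm38), promoters from RefSeq on GRCm38.p6. Tables and figures were made with Python 3.11.15 (pandas 2.3.3, numpy 2.4.6, matplotlib 3.10.9). Alternatives were other pseudocounts, filters and scalings, library weights, the groups compared alone, a replicate block, and fits without single libraries or without sets of them.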

Additional observations from a re-analysis of the deposited data

Results flagged for a closer look

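Within each condition of 10 libraries the highest and lowest value of each of the 38 genes were compared with the others by Dixon's ratio at 95%. Of 152 such sets, 20 held a library standing apart. The nominal rate of 1 in 20 assumes normally distributed values and independent sets. Here the ratio was taken on normalized counts, not log2 values, and the sets share the same 40 libraries. The 20 cannot therefore be set against that rate. None of the genes had TAC or genotype effects that differed between sexes or genotypes by the test.

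ONOFF TAC F replicate 2, the library with lung genes, stood above the rest of ONOFF TAC in 7 genes: Itga3 at 2305, Itga8 at 767, Lamb3 at 477, Itgb2 at 412, Itgb4 at 269, Itgb7 at 125 and Itga4 at 106. In the same condition Itgb1 was lowest in F replicate 1 at 10721, and Lama1 was highest in F replicate 4 at 27.4. In ONOFF Sham, Itga9 was highest in M replicate 5 at 3211, and Itga2 was lowest in M replicate 2 at 9.59.

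In Con TAC, F replicate 4 was highest for Itga7 at 12425 and lowest for Lamb1 at 3798, and M replicate 1 was highest for Itgb5 at 10309. The Xist-poor libraries held the highest Itgb7, 177 in F replicate 2, while for Itgb3 F replicate 3 was set apart at 226. Lama1 was highest in F replicate 1 at 18.5. In Con Sham, Itga2 was highest in F replicate 5 at 366 and Itgad in M replicate 4 at 78.2, both libraries rich in zeros, and Itga1 was highest in F replicate 1 at 2490.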

How the results depend on the processing

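The 12 genes called for TAC in ONOFF mice numbered 11 to 13 with any single library left out, 14 with library weights, 13 in a fit of the groups compared alone, 13 without the zero-rich libraries or without both sets, and 12 in the other planned settings. Itgb7 was the added call in each of those 4 settings, joined by Itgae with library weights. Of the 16395 genes kept, 3480 were called with all libraries, 3116 to 3675 with single libraries left out and 5266 with library weights. The number was 4309 in the groups alone, 4058 without the zero-rich libraries and 4202 without both sets. The 6 called between ONOFF TAC and Con TAC numbered 5 to 8 with single libraries left out, 4 in a fit of the groups compared alone, 5 without the Xist-poor libraries or without both sets, 7 with library weights, with quantile normalization or without the zero-rich libraries, and 6 in the other planned settings. Over all genes kept this comparison called 1306 with all libraries, 886 to 1592 with single libraries left out and 1053 in the groups alone. It called 1476 without the Xist-poor libraries, 1936 without both sets and 1696 without the zero-rich ones. Library weights gave 2355 and quantile normalization 1352. The 5 called for TAC in Con mice numbered 3 to 5 with single libraries left out, 3 in a fit of the groups compared alone, 3 without the zero-rich libraries, 3 without the Xist-poor libraries and 1 without both sets, beside the numbers over all genes given above. The test of the difference between the TAC effects, with 0 calls, gave 0 to 2 with single libraries left out, 3 with library weights (Itgb5, Itgbl1 and Itga9), and 1 (Itgbl1) without the zero-rich libraries or without both sets. Over all genes kept that test called 73 with all libraries and 9 to 250 with single libraries left out. It called 449 with library weights, 128 without the zero-rich libraries and 440 without both sets. The cause of these shifts was not tested. Genotype after sham and the sex differences kept 0 calls in every setting run. No value of a called gene changed sign.

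With the replicate block the counts were 12, 5, 6, 0 and 0, as without it, and it changed none of these counts. Equal numbers gave no clear sign of pairing, which does not show that there was none. Over 140 same-numbered pairs the correlation of deviations was -0.19 to 0.24 with a median of 0.0044, and 23 were above 0.1. The median for different numbers was 0.0022, and 10 of 40 libraries correlated best with their own number.

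Without the 14 libraries with atrial genes, an alternative chosen after seeing the data like the fit without both sets, 8 genes were called for TAC in ONOFF mice, 4 for TAC in Con mice and 7 between ONOFF TAC and Con TAC. Of the 16395 genes kept, the same fit called 2147, 546 and 1210 in these comparisons. Depth is unknown, so low genes such as Lama1 cannot be given a detection limit.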

Other observations

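ONOFF TAC F replicate 1 was the lowest ONOFF TAC library for several genes called with TAC in ONOFF mice, among them Itgb5 at 6852, Itgb1 at 10721, Itgbl1 at 672 and Itga9 at 3723. It also held the highest atrial genes of the 40 libraries, with Myl7 at 7010, Myl4 at 15302 and Sln at 3678, and their part in these low values was not tested. Without that library the test of the difference between the TAC effects called 2 of the 38 genes. Over all genes kept that test called 9 to 250 with any single library left out.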
